A study of Mus musculus with 8 samples.

Results

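Genes for 9 adhesion molecules that take leukocytes out of the blood were followed in mouse lung: the endothelial selectins Sele and Selp, the selectin ligand Selplg, the endothelial integrin ligands Icam1, Icam2 and Vcam1, the leukocyte integrin alpha subunits Itgal and Itgam, and the adhesion protein Thy1. These 9 were picked by name and function, from 52636 gene identifiers in the count tables, and all 9 had enough reads to be tested among 20546 genes. RNA sequencing was done on lung tissue of wild-type male C57BL/6 mice, an inbred strain, with 8 libraries in 4 groups of 2. For the COPD mice model, porcine pancreatic elastase (PPE) was given into the trachea at 10 weeks of age and lipopolysaccharide (LPS) followed from 12 weeks, whereas the control mice received phosphate-buffered saline (PBS) at both times. From 8 weeks of age each received either a control diet or a diet with 2% TJ-41, the Japanese herbal (kampo) medicine hochuekkito. The age at which this RNA was taken, and the number of mice behind a library, were not given in the sources used here, so p-values measure the spread between these libraries, which may be technical. The model is made by 2 agents, and the effects of PPE and of LPS cannot be told apart in these groups.

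Leukocytes leave the blood in steps. Selectins on activated endothelium (E-selectin from Sele, P-selectin from Selp) catch passing cells by PSGL-1, the product of Selplg, and let them roll. Integrins of the leukocyte (LFA-1 with the alpha subunit Itgal, Mac-1 with Itgam, both paired with the beta subunit Itgb2) then bind ICAM-1 and ICAM-2 and hold the cell firmly, VCAM-1 binds the integrin VLA-4, and the cell crosses the vessel wall. Thy-1, anchored by a lipid, is carried by mouse T cells, fibroblasts and neurons, and can serve as a ligand for integrins.

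Inflammatory signals switch on Sele and Icam1 through NF-kB, so the start regions of the selectin genes and of Icam1 are shown, with the letters that a search found. RefSeq start regions on GRCm38.p6, 250 bases before to 50 after the start, were matched for 4 of the 9 genes (Sele, Selp, Icam1 and Itgam). In the 3 shown, all on the plus strand, capitals mark a kB-like motif (GGNNNTTCC, or GGAANNNCC for the other strand) or the TATA motif (TATAAA, or TTTATA for the other strand). The kB-like letters were chosen after these windows had been read.
Sele, chr1:164047984-164048283: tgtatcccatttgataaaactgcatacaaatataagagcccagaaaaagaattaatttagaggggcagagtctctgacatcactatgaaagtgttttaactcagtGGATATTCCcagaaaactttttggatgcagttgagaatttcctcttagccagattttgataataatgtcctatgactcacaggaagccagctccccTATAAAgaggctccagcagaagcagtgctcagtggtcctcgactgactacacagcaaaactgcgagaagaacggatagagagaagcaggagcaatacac
Selp, chr1:164115014-164115313: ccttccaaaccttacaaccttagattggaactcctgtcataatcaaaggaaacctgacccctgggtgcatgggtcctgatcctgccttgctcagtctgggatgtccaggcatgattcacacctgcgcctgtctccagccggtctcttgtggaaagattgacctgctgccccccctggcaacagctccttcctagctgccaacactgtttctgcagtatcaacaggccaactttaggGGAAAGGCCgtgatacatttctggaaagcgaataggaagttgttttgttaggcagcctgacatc
Icam1, chr9:21015690-21015989: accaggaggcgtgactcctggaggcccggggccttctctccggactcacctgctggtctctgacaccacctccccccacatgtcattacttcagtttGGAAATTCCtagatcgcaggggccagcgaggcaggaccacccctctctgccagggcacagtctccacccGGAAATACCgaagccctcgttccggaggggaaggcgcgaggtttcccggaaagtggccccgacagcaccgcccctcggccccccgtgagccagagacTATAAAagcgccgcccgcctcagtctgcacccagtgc
Sele held the kB-like letters GGATATTCC at base -145 from the start and TATAAA at -49. Selp held GGAAAGGCC, a match on the other strand, at -14 and no TATAAA. Icam1 held GGAAATTCC, which matches on both strands, at -153, GGAAATACC on the other strand at -84, and TATAAA at 13 bases after the RefSeq start. The Itgam window held neither motif. Of 32851 promoters of the same length, 18.5% held the kB-like motif and 13.6% the TATA motif on either strand, and the matches describe letters only.

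In the genome (mm10, GRCm38, with GENCODE M21 genes) Sele at chr1:164048234-164057677 and Selp at chr1:164115264-164150026 are neighbours on the plus strand. Icam1 at chr9:21015985-21028817 and Thy1 at chr9:44043384-44048579 are on the plus strand, as are Itgal at chr7:127296260-127335138 and Itgam at chr7:128062640-128118491. Selplg at chr5:113818536-113832644, Icam2 at chr11:106377656-106388075 and Vcam1 at chr3:116109949-116129688 are on the minus strand. Antisense genes also share 9.93% (Gm16548) and 4.21% (Gm16587) of the Selp exons and 0.688% (Gm43109) of the Vcam1 exons, each with 0 to 5 reads a library.

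The libraries held 18767295 to 20888042 counts, and levels are given as CPM (counts per 1000000 reads) scaled by TMM, at which 3 reads are worth 0.153 to 0.162 CPM. Counting error alone is covered by such limits. The second library of the model on the control diet stood apart from its replicate: the SD over genes of the log2 CPM difference between replicates was 0.798 in that group and 0.394 to 0.469 in the other 3. It had low B cell and neutrophil marker sums, and results that rest on it are given with and without it. Lung epithelial markers such as Sftpc, summed, lay between 31359 and 66176 CPM in all libraries, and of the thymus markers Rag2 and Foxn1 had no read in any.

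The 9 genes covered a wide range of levels. Per kilobase of annotated exons, Icam1 was the highest, at a mean of 85.8 CPM (SD 9.5, range 71.0 to 102 over 8 libraries). Icam2 followed at 62.0 (SD 6.39, 53.8 to 74.7), and these 2 ranges overlapped. Selplg (18.2), Itgal (15.6), Vcam1 (14.4) and Thy1 (13.6) formed a middle band in which each gene's range overlapped that of the next, and no library of this band reached the lowest Icam2 library. Itgam lay at 2.90 CPM per kilobase, below every library of the band and above every library of Selp. Selp (1.13, SD 0.178) and Sele (0.858, SD 0.616) were the lowest and overlapped, and the highest Sele library (2.14) passed the lowest Itgam library (2.02). The middle band alone was reordered when length was taken from the longest transcript, to Selplg (33.7), Vcam1 (31.2), Thy1 (23.4) and Itgal (19.6).

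**Figure D1:**
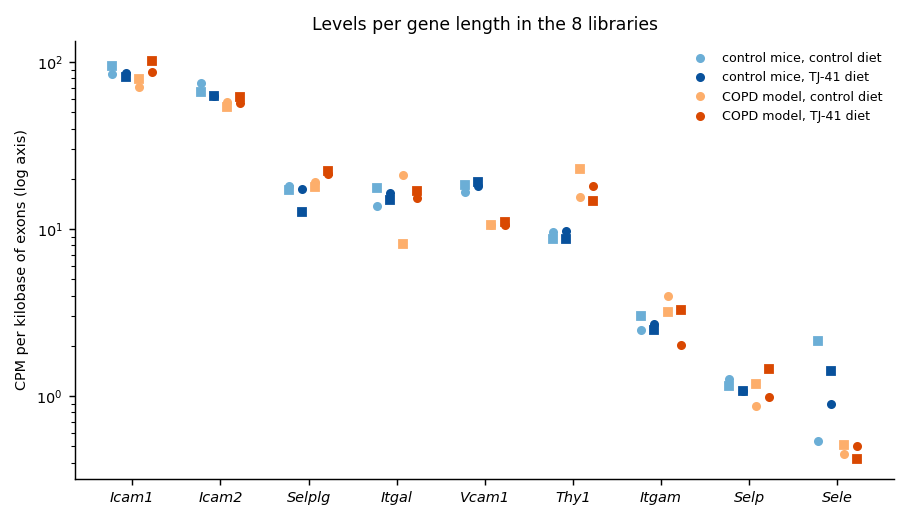
Level of each gene in the 8 lung libraries, in CPM per kilobase of annotated exons on a log axis, with circles for replicate 1 and squares for replicate 2 of each group. Icam1 and Icam2 lie above 53.8 in every library, Selp and Sele at 2.14 or below.

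Sele, the cytokine-induced selectin of endothelium, had lower levels in the COPD mice model on both diets, from few reads and without passing the test. Its level was 1.57 and 6.23 CPM in control mice on the control diet and 2.61 and 4.11 CPM on the TJ-41 diet. In the model it was 1.30 and 1.49 CPM on the control diet and 1.46 and 1.23 CPM on the TJ-41 diet, and none of these 4 libraries reached the lowest library of control mice. The control mice varied widely, with 30 reads in one replicate and 120 in the other on the control diet, against 24 to 29 reads in the COPD mice model. The log2 fold change over both diets was -1.40 (SE 0.41, 95% interval -2.32 to -0.47), which did not pass the test (edgeR's quasi-likelihood test, adjusted p = 0.245 by Benjamini-Hochberg). Without the control mouse library of 120 reads it was -0.74, with an adjusted p of 0.677 in edgeR. Within diets the log2 fold change was -1.48 (SE 0.58) on the control diet and -1.32 (SE 0.58) on the TJ-41 diet. The value on the control diet rested on the library of 120 reads, without which it was -0.17 (adjusted p = 0.999 in edgeR).

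Selp, the selectin stored in endothelial cells and platelets, had overlapping levels in the model and in control mice. Control mice had 5.60 and 5.09 CPM on the control diet and 4.71 and 4.76 CPM on the TJ-41 diet. The model had 3.86 and 5.23 CPM on the control diet and 4.38 and 6.44 CPM on the TJ-41 diet, a wider spread that enclosed the control mice. The log2 fold change over both diets was -0.02 with a 95% interval from -0.48 to 0.44. Platelet markers, summed, were 29.5 to 38.3 CPM in control mice and 27.4 to 48.0 CPM in the COPD mice model, and their part in the Selp level was not tested.

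Selplg, whose product PSGL-1 is the selectin ligand of leukocytes, had its highest libraries in the COPD mice model fed TJ-41. Control mice had 77.6 and 73.4 CPM on the control diet and 74.5 and 54.0 CPM on the TJ-41 diet. The model had 82.1 and 75.9 CPM on the control diet, which overlapped the control mice, and 90.8 and 94.8 CPM on the TJ-41 diet, which did not. The log2 fold change was 0.07 (SE 0.18) on the control diet and 0.53 (SE 0.18, adjusted p = 0.633 in edgeR) on the TJ-41 diet. Without the library of 54.0 CPM the latter was 0.32, and without its replicate 0.79. Over both diets it was 0.30 (95% interval 0.01 to 0.59, adjusted p = 0.468 in edgeR). The difference between the effects on the 2 diets was 0.47 (SE 0.26, 95% interval -0.11 to 1.04), which did not pass the test (adjusted p = 0.999 in edgeR), and it was 0.26 without the library of 54.0 CPM and 0.73 without its replicate.

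Vcam1, the ligand of VLA-4 on inflamed endothelium, was the member that fell with the smallest p in the COPD mice model. Control mice had 148 and 164 CPM on the control diet and 162 and 169 CPM on the TJ-41 diet. The model had 93.9 and 94.3 CPM on the control diet and 93.4 and 97.6 CPM on the TJ-41 diet. All 4 libraries of the model lay within a few CPM of each other and well under every control library, with means of 161 ± 9.27 CPM (SD, n = 4) in control mice and 94.8 ± 1.91 CPM (SD, n = 4) in the model. Over both diets the log2 fold change was -0.76 (SE 0.11, 95% interval -0.999 to -0.522), which is 0.590 times the level in control mice, with an adjusted p of 0.0184 in edgeR. It was -0.73 (SE 0.15, adjusted p = 0.206) on the control diet and -0.79 (SE 0.15, adjusted p = 0.190) on the TJ-41 diet in edgeR, 2 comparisons that share no library. The fall was short of the threshold of a log2 fold change beyond 1. Leaving out any 1 library of control mice, or of the model on the TJ-41 diet, raised the adjusted p to between 0.0929 and 0.167 (6 of 8 such fits), and without the library that stood apart it was 0.00299. With a loess correction for gene length and GC content it was 0.0735. Over these fits the log2 fold change stayed between -0.79 and -0.60.

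The endothelial marker sum differed less than Vcam1 did. The sum of 11 endothelial genes, among them Pecam1 and Cdh5, was 4095 to 4663 CPM in control mice and 3763 to 4134 CPM in the COPD mice model. Of their log2 fold changes 8 of 11 lay below 0 (median -0.10). There was 1 at an unadjusted p under 0.05 in edgeR (10.4% of all genes), and 0 passed the false discovery rate in edgeR or DESeq2. Vcam1 was 3.51% to 3.82% of that sum in control mice and 2.28% to 2.48% in the COPD mice model, which did not overlap. Of the fibroblast sum it was 5.35% to 7.86% and 3.12% to 5.91%, which overlapped. In whole lung, fewer cells of a type and less RNA per cell cannot be told apart.

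**Figure D2:**
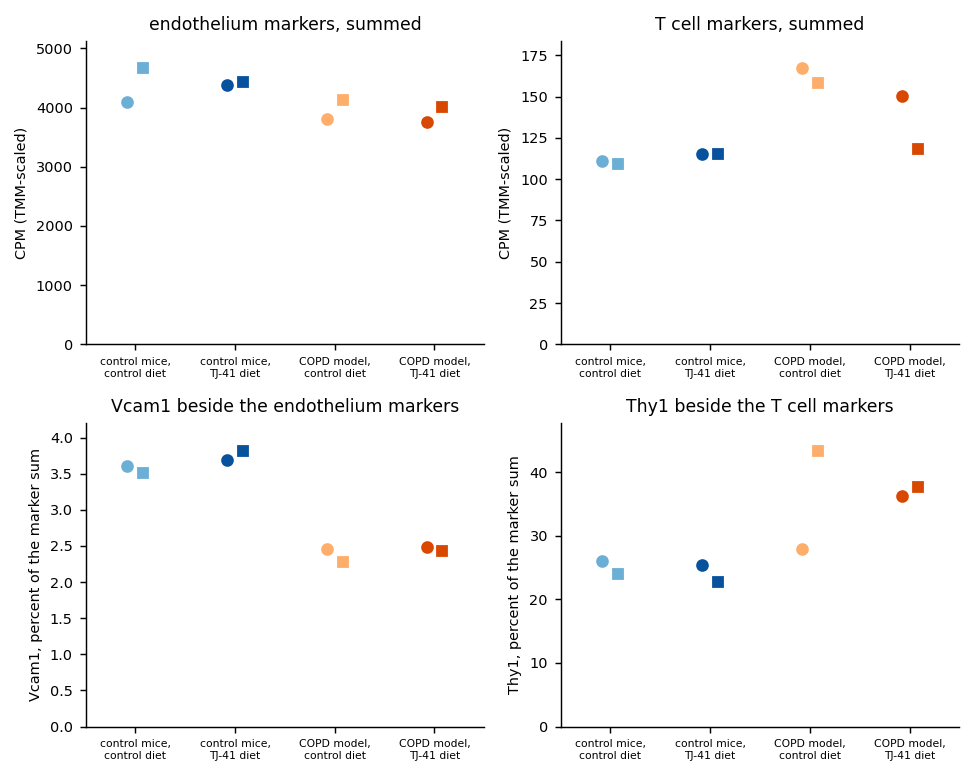
Summed CPM of the endothelial and T cell marker lists (top) and Vcam1 and Thy1 as a percent of those sums (bottom), by library, with circles for replicate 1 and squares for replicate 2. Vcam1 is 3.51% to 3.82% of the endothelial sum in control mice and 2.28% to 2.48% in the COPD mice model, and Thy1 is 22.8% to 26.0% and 27.9% to 43.4% of the T cell sum.

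Icam2, carried by resting endothelium, had slightly lower levels in the COPD mice model, a difference that did not pass the test. Its level was 142 and 126 CPM in control mice on the control diet and 119 CPM in both libraries on the TJ-41 diet. The model had 110 and 102 CPM on the control diet and 109 and 117 CPM on the TJ-41 diet, just below the control mice without overlap. The log2 fold change over both diets was -0.21 (SE 0.11, 95% interval -0.45 to 0.04, adjusted p = 0.552 in edgeR). As a percent of the endothelial sum, Icam2 was 2.69% to 3.47% in control mice and 2.48% to 2.92% in the COPD mice model, which overlapped.

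Icam1, the inducible ligand of LFA-1 and Mac-1, which lung epithelium also carries, did not differ in one direction. Control mice had 368 and 411 CPM on the control diet and 377 and 354 CPM on the TJ-41 diet. The model had 310 and 344 CPM on the control diet, below all control mice, and 382 and 445 CPM on the TJ-41 diet, within and above them. The log2 fold change was -0.25 (SE 0.17) on the control diet and 0.18 (SE 0.17) on the TJ-41 diet, and the difference between them was 0.43 (SE 0.24, 95% interval -0.11 to 0.98, adjusted p = 0.999 in edgeR). Over both diets it was -0.04, with an interval from -0.31 to 0.24. An antisense gene, Gm47079, shares 11.7% of the Icam1 exons and had 0 to 5 reads.

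Itgal, the alpha subunit of LFA-1 on lymphocytes and other leukocytes, had replicates far apart in the model on the control diet. Control mice had 91.0 and 115 CPM on the control diet and 108 and 98.8 CPM on the TJ-41 diet. The model had 139 and 53.6 CPM on the control diet, the highest and the lowest of all 8 libraries, and 100 and 111 CPM on the TJ-41 diet. The low value belongs to the library that stood apart. Over both diets the log2 fold change was -0.03 (SE 0.25, 95% interval -0.60 to 0.54). It became 0.24 when that library was left out and -0.45 when its replicate was left out, each time with a single library left in that group. Itgal was 24.0% to 28.9% of the summed B cell markers in control mice and 28.7% to 44.9% in the model, where that sum ran from 187 to 413 CPM against 377 to 399 CPM in control mice. Of the summed T cell markers it was 81.8% to 106% in control mice and 33.8% to 94.0% in the model, and both pairs of ranges overlapped. The part of these cells in the Itgal level was not tested.

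Itgam, the alpha subunit of Mac-1 on neutrophils and macrophages, was low, and its groups overlapped. Control mice had 12.6 and 15.3 CPM on the control diet and 13.6 and 12.5 CPM on the TJ-41 diet. The model had 20.02 and 15.9 CPM on the control diet, above all control mice, and 10.2 and 16.4 CPM on the TJ-41 diet, on both sides of them. Over both diets the log2 fold change was 0.20 (SE 0.19, 95% interval -0.22 to 0.62), and it ran from 0.004 to 0.35 with 1 library left out. The level itself is uncertain, because the annotation places Gm49368 on the same strand over 3450 of the 5024 exon bases of Itgam (68.7%). Gm49368 had 0 to 6 reads a library, and how reads over both genes were counted was not given in the sources used here. Over the 1574 exon bases that no other gene shares, Itgam would be at 9.26 CPM per kilobase in place of 2.90, still below the middle band's means and above Selp.

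Marker sums of the cells that carry Mac-1 varied widely. The macrophage and monocyte sum was 927 to 1128 CPM in control mice and 1342 to 1882 CPM in the COPD mice model, with 6 of 11 log2 fold changes above 0 (median 0.16). Without Chil3, named after its values were seen, the sums were 544 to 652 CPM and 466 to 729 CPM, which overlapped. The neutrophil sum was 173 to 268 CPM in control mice and 74.1 to 372 CPM in the model. Their part in the Itgam level was not tested. Among the alpha subunits that pair with Itgb2, per exon length, Itgax made up 47.7% to 61.0%, Itgal 29.7% to 42.9%, Itgam 4.40% to 11.5% and Itgad 1.07% to 1.99%. With exon bases of no other gene as the length, Itgam made up 12.8% to 29.3%.

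Thy1 was the one member that passed the false discovery rate upward over both diets. Control mice had 28.9 and 26.2 CPM on the control diet and 29.2 and 26.2 CPM on the TJ-41 diet. The model had 46.6 and 68.7 CPM on the control diet and 54.5 and 44.4 CPM on the TJ-41 diet. Every library of the model lay above every control library, with means of 27.7 ± 1.66 CPM (SD, n = 4) in control mice and 53.6 ± 10.98 CPM (SD, n = 4) in the model. Over both diets the log2 fold change was 0.95 (SE 0.15, 95% interval 0.60 to 1.29), 1.93 times the level in control mice, with an adjusted p of 0.0379 in edgeR. On the control diet it was 1.06 (SE 0.22), which passed the fold threshold but not the test (adjusted p = 0.201 in edgeR). Without the library that stood apart the value on the control diet was 0.76, short of that threshold. On the TJ-41 diet it was 0.83 (SE 0.22, adjusted p = 0.429 in edgeR). The same 6 left-out libraries raised the adjusted p over both diets to between 0.0679 and 0.269, and without the library that stood apart it was 0.00437 at a log2 fold change of 0.80.

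The T cell marker sum was also higher in the model. The sum of 11 T cell genes was 109 to 115 CPM in control mice and 118 to 167 CPM in the COPD mice model, with 10 of 11 log2 fold changes above 0 (median 0.42), 6 at an unadjusted p under 0.05 in edgeR (10.4% of all genes), and 0 past the false discovery rate in edgeR. At that unadjusted p there were 5 on the control diet (7.70% of all genes) and 0 on the TJ-41 diet (6.56%). For the difference between the diets there were 0 (3.27%). Over both diets DESeq2 passed 1, Cd3g, a chain of the T cell receptor complex. Thy1 was 22.8% to 26.0% of the T cell sum in control mice and 27.9% to 43.4% in the COPD mice model, and 0.857% to 1.54% and 1.87% to 2.93% of the fibroblast sum, without overlap in either. The part of these cells in the Thy1 level was not tested.

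**Figure D3:**
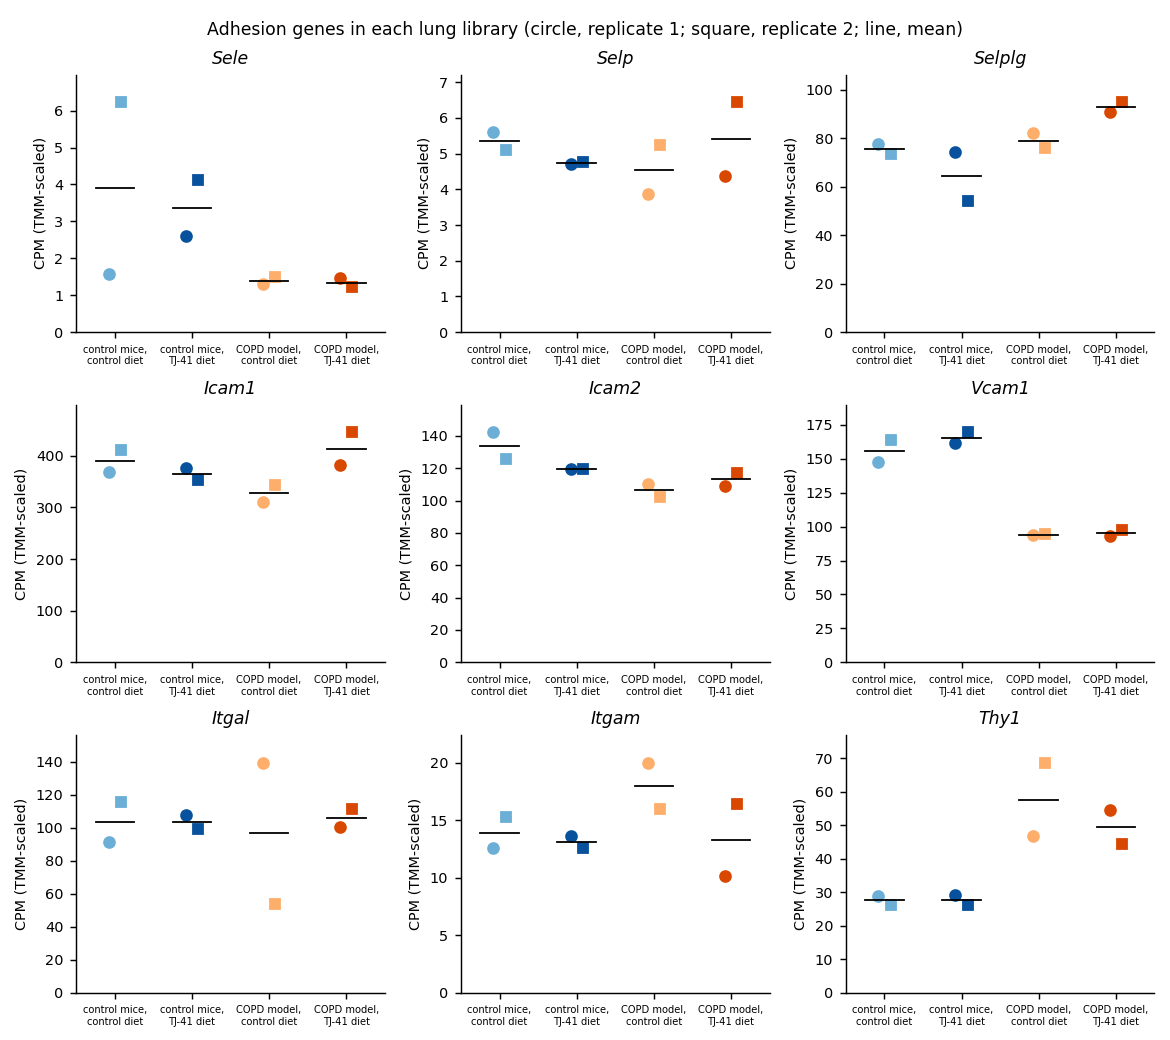
TMM-scaled CPM of each of the 9 genes in the 8 lung libraries, with circles for replicate 1, squares for replicate 2 and a line at the group mean. The libraries of the COPD mice model lie below all control mice for Sele, Icam2 and Vcam1 and above them for Thy1.

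Counted over the 9 genes, none passed both thresholds (false discovery rate under 0.05 and log2 fold change beyond 1) when the model was set against control mice, on the control diet (0.122% of all genes tested), on the TJ-41 diet (0.0779%) or over both diets (0.443%). DESeq2 called Thy1 on the control diet, beside 172 of 35466 genes, and none in the other 2. By the false discovery rate alone, Vcam1 and Thy1 passed over both diets in edgeR, 2 of 9 beside 0.506% of all genes (104 of 20546). The same 2 passed in DESeq2, beside 410 of 35466 genes. Without the library that stood apart, their log2 fold changes over both diets in edgeR were -0.76 and 0.80. Within a diet none passed by that rate alone in the edgeR fit of all 8 libraries (0.122% and 0.0779% of all genes), whereas DESeq2 passed Vcam1 and Thy1 on the control diet and Vcam1 on the TJ-41 diet. On the TJ-41 diet both passed when edgeR was fitted to the 4 libraries compared alone, with adjusted p of 0.00564 for Vcam1 and 0.0150 for Thy1. That fit called 248 of 19809 genes at both thresholds. The same kind of fit on the control diet passed neither, with adjusted p of 0.943 for Vcam1 and 0.619 for Thy1 in edgeR, and called 19 of 19855 genes. Leaving out the first library of the model on the control diet left the one that stood apart alone. The log2 fold changes on that diet were then -0.73 for Vcam1, -0.95 for Itgal and 1.31 for Thy1. At an unadjusted p under 0.05 there were 3 on the control diet (7.70% of all genes), 4 on the TJ-41 diet (6.56%) and 4 over both diets (10.4%). Libraries did not overlap for 6 genes on the control diet (27.6% of all genes), 6 on the TJ-41 diet (56.5%) and 4 over both diets (6.78%), of which Thy1 was higher and Sele, Icam2 and Vcam1 were lower. The median log2 fold change over both diets was -0.03 in the 9 genes and -0.0017 in all genes tested.

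**Figure D4:**
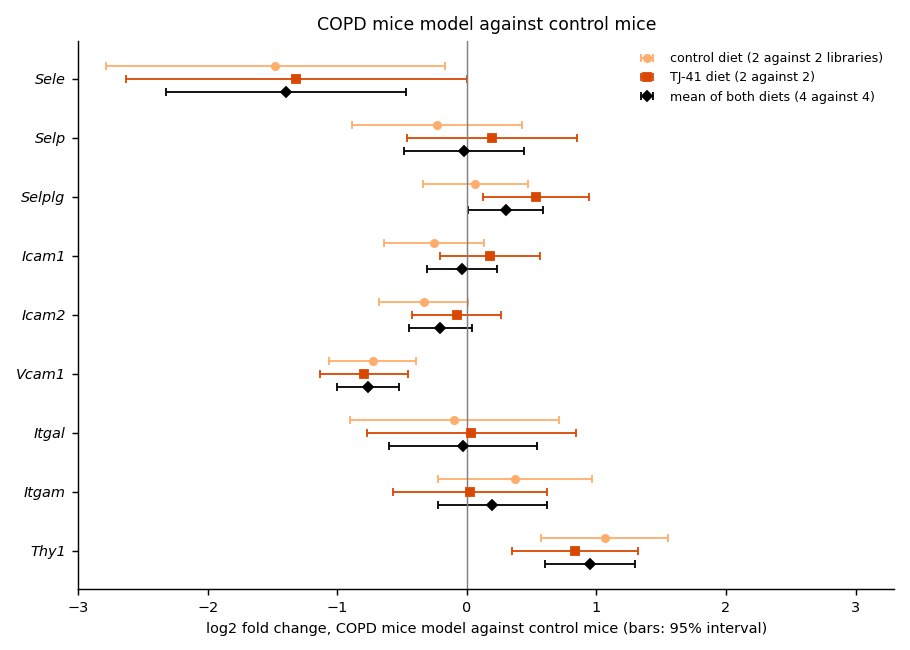
Log2 fold change of each gene in the COPD model against control mice, with 95% intervals from edgeR, on the control diet (circles), on the TJ-41 diet (squares) and over both diets (diamonds). The intervals of Vcam1 lie below 0 and those of Thy1 above 0 in all 3 comparisons, and the interval of Sele reaches furthest, from -2.78 on the control diet.

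The TJ-41 diet left no member past the test in either kind of mouse. In control mice none of 9 was called (0% of all genes), none had an unadjusted p under 0.05 in edgeR (1.64% of all genes), and the libraries did not overlap for 2 (38.2% of all genes), with Selp and Icam2 lower. Vcam1 (log2 fold change 0.09, 95% interval -0.25 to 0.42) and Thy1 (0.01, -0.48 to 0.50) were close to 0 there. In the COPD mice model none of 9 was called (0.00487%) and none had an unadjusted p under 0.05 in edgeR (4.10%), and 2 did not overlap (29.0%), with Selplg (0.23, -0.17 to 0.64) and Icam1 (0.34, -0.04 to 0.73) higher. Thy1 was -0.22 (-0.70 to 0.26), Vcam1 0.02 (-0.31 to 0.36) and Itgam -0.44 (-1.03 to 0.16). With 1 library left out the Itgam value ran from -0.82 to -0.13. DESeq2 also called none of the 9 in either diet comparison. For TJ-41 in the model, Itgal ran from -0.40 to 0.98 with 1 library left out. The 0.98 came without the first library of the model on the control diet, which left the one that stood apart alone in that group.

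The difference between the diets in the effect of the model was called for none of 9 (0% of all genes), and none had an unadjusted p under 0.05 in edgeR (3.27%). Its 95% interval was widest for Sele, from -1.69 to 2.01, and narrowest for Vcam1, from -0.54 to 0.41. The median of this difference was 0.16 in the 9 genes and -0.01 in all genes tested.

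The other genes of the adhesion cascade, a list of 55 with 51 tested, gave no gene past the false discovery rate in any of the 6 comparisons, in the edgeR fit of all 8 libraries or in DESeq2. When the 4 libraries on the TJ-41 diet were fitted alone 3 passed there, among them Itgb2 (adjusted p = 0.0183 in edgeR) and Itgax (0.0223). In that fit 248 of 19809 genes were called at both thresholds. Some cascade genes also passed with either library of the model on the control diet left out. Those fits left 1 library in that group, and over both diets more genes passed in them than in the fit of all 8 libraries. Over both diets 6 had an unadjusted p under 0.05 and were higher and 1 was lower (10.4% of all genes had such a p), with 3 and 0 on the control diet (7.70%) and 4 and 2 on the TJ-41 diet (6.56%). For the diet they were 0 and 0 in control mice (1.64%) and 1 and 3 in the model (4.10%), and for the difference between the diets 0 and 2 (3.27%). The median log2 fold change over both diets was -0.0029, with 25 above and 26 below 0. Among them are the enzymes that build the sugars selectins bind. In the sublist of rolling ligands and their glycosylation 4 of 14 tested were higher at an unadjusted p under 0.05 and none lower, in the leukocyte integrin subunits 1 and 1 of 9, in the other endothelial adhesion molecules 1 and 0 of 6, and in the 10 integrin activation genes, the 9 junction genes and the 3 membrane linkers none. The 1 endothelial gene, named after its value was seen, was the chemokine-binding receptor Ackr1, at a log2 fold change of 1.64 (SE 0.61, adjusted p = 0.388 in edgeR). Its reads were few, with 0.16 to 0.94 CPM in control mice. In the model it had 0.47 and 3.18 CPM on the control diet, the higher in the library that stood apart, and 1.25 and 1.07 CPM on the TJ-41 diet.

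Itgb2, the beta subunit that both LFA-1 and Mac-1 need, had 105 and 103 CPM in control mice on the control diet and 104 and 77.2 CPM on the TJ-41 diet. The model had 149 and 94.3 CPM on the control diet and 162 and 163 CPM on the TJ-41 diet. There 3 of the 4 libraries lay above all control mice, and the other was the library that stood apart. Its log2 fold change was 0.23 (SE 0.23) on the control diet, 0.84 (SE 0.23, adjusted p = 0.509 in edgeR) on the TJ-41 diet and 0.54 (SE 0.17, adjusted p = 0.273 in edgeR) over both. Without the library that stood apart the value over both was 0.69, and without its replicate it was 0.35, each time with 1 library left in that group. Its alpha partner Itgax had a log2 fold change of 0.60 (SE 0.21) on the TJ-41 diet, where Itgal and Itgam had 0.03 and 0.02.

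Of genes that serve the selectins, Fut4, a fucosyltransferase for their ligands, had a log2 fold change of 0.53 over both diets (SE 0.16, adjusted p = 0.246 in edgeR). With 1 library left out it ran from 0.45 to 0.62. The endothelial sialomucins Emcn (0.46, SE 0.15) and Cd34 (0.35, SE 0.15) had the smallest unadjusted p on the control diet, and neither passed the adjusted test.

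Across the 8 libraries, Vcam1 and Thy1 ran opposite to each other, with a Pearson r of -0.94 in log2 CPM. Vcam1 and Sele had an r of 0.81, and Thy1 and Icam2 -0.80. These values describe 8 libraries that include the difference between the model and the control mice, and no test was made on them. The genes most like Vcam1 were Gm35533 (r = 0.990), Spon2 (0.980) and Rab11fip1 (0.976), and those most like Thy1 were Hook2 (0.980), Pik3ip1 (0.979) and Cxcr3 (0.978), a chemokine receptor of activated T cells.

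Itgal was most like Arhgap30 (0.994), Galnt7 (0.989) and Gm7895 (0.989), and 406 genes had an r above 0.9 with it, against 5 genes with Itgam. Itgal had its lowest level, 53.6 CPM, in the library that stood apart, and r without that library was not computed. Galnt7 belongs to the enzymes that start O-linked sugar chains. Itgam was most like Azgp1 (0.932), Gm36989 (0.928) and Pih1d3 (0.927). Sele was most like Lsm11 (0.984), Tgfa (0.975) and Sf3b3 (0.968), and Selp was most like Gm4903 (0.942), Gm37575 (0.937) and Gm12766 (0.937). Tgfa is a ligand of the EGF receptor. Selplg was most like Gm14699 (0.982), Celsr3 (0.980) and Txnrd3 (0.977). Icam1 was most like Ano1 (0.959), Sh3tc1 (0.953) and Gm13578 (0.947), and Icam2 was most like Rbmxl1 (0.958), Cep57l1 (0.954) and Gm19257 (0.947). For each member these are the 3 highest r among the 20546 genes tested.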

How the data were processed

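Lung RNA of 8 libraries was analysed from the raw counts per Ensembl gene that the authors deposited, on mm10. The submitters' notes name HISAT2 and edgeR, and the counting program, annotation, strand setting and handling of reads shared by genes were not given in the sources used here. Groups came from the sample labels, which write the diet as TJ41 and as TJ4. Symbols, exon lengths and GC content came from GENCODE M21 (52489 of 52636 identifiers found).

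edgeR 4.0.16 in R 4.3.3 fitted all 8 libraries (TMM, filterByExpr with minimum counts of 10 and 15, group means, quasi-likelihood test with 4 residual degrees of freedom). Adjusted p-values are Benjamini-Hochberg over all 20546 genes. A gene was called at a false discovery rate under 0.05 with a log2 fold change beyond 1. "Over both diets" is the mean of the 2 within-diet effects. The SE is the log2 fold change divided by the square root of F, and the 95% interval uses the total degrees of freedom of edgeR. The genes named are the 9 members, Itgb2 and the 2 cascade genes with the smallest p per model comparison, and the 3 genes most correlated with each member; 1 other gene of that rule is not reported here.

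Alternatives were DESeq2 1.42.0, other scalings, filters and samples, a replicate block, a loess correction for length and GC content, and leaving out each library. Tests were checked on simulated data. Replicates differed by 11.0 to 80.2 times counting variance, so none was a copy. The members and lists were chosen with earlier results of these data known.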

Additional observations from a re-analysis of the deposited data

How the results depend on the processing

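The count of members called on the control diet was 0, and was 1 (Thy1) with DESeq2, with all genes of at least 1 count and with the loess correction, and 0 to 1 with 1 library left out. Over both diets 0 members were called, 2 by the false discovery rate alone, and 0 to 1 with 1 library left out. By the false discovery rate alone over both diets the count of 2 became 1 with the replicate block (Vcam1, adjusted p 0.0429, with Thy1 at 0.0796), 1 with the loess correction (Thy1), and 0 to 3 with 1 library left out: it was 0 without either library of any group other than the model on the control diet. Same-numbered libraries did not deviate together (correlations of replicate differences from -0.234 to 0.108), so that block shares only a number. The cause of these shifts was not tested. The log2 fold changes of Vcam1, Thy1 and Sele over both diets kept their sign in every alternative tried.
Small log2 fold changes, none of them called, changed sign: Itgal of the model on the TJ-41 diet -0.029 with the loess correction, Itgal of TJ-41 in control mice -0.011 with library size alone, Thy1 of TJ-41 in control mice -0.0046 with library size alone, Itgal of TJ-41 in control mice -0.0054 in a fit of only the groups compared, Itgal of TJ-41 in control mice -0.018 with the replicate block, Vcam1 of TJ-41 in control mice -0.11 with the loess correction, Vcam1 of the difference between diets 0.14 with the loess correction, Itgal of the difference between diets -0.012 with the loess correction. With 1 library left out, the ranges that crossed 0 were, for the effect of the model on the control diet, Itgal -0.95 to 0.44, Itgb2 -0.14 to 0.53. For the effect of the model on the TJ-41 diet, Itgal -0.034 to 0.11, Itgam -0.36 to 0.33, Selp -0.10 to 0.45. For the effect of the model over both diets, Icam1 -0.093 to 0.015, Itgal -0.45 to 0.24, Selp -0.17 to 0.10. For the effect of TJ-41 in control mice, Itgal -0.16 to 0.18, Itgam -0.22 to 0.055, Sele -0.89 to 1.09, Thy1 -0.084 to 0.089. For the effect of TJ-41 in the COPD mice model, Itgal -0.40 to 0.98, Sele -0.18 to 0.069, Selp -0.049 to 0.51, Thy1 -0.47 to 0.083, Vcam1 -0.0067 to 0.056. For the effect on the difference between diets, Itgal -0.39 to 0.99, Sele -1.13 to 0.84, Thy1 -0.47 to 0.084, Vcam1 -0.13 to 0.011.
All genes called over both diets numbered 91, and 15 to 873 with 1 library left out, 245 with DESeq2 and 278 with all genes of at least 1 count. On the control diet 25 genes were called, 172 with DESeq2 and 147 with all genes of at least 1 count, and on the TJ-41 diet 16, 116 and 89, with 248 when the 4 libraries compared were fitted alone. Sele had 24 to 120 reads a library, the depth at which counting error is largest among the 9 genes. The level of Itgam per kilobase moved from 2.90 to 9.26 on exon bases of no other gene, a length chosen after seeing the data.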
